A study of Rattus norvegicus with 24 samples.

Results

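The glucocorticoid receptor gene Nr3c1 and genes known to respond to the receptor under stress were followed in the left ventricle of rats after a high thoracic spinal cord injury. The group was defined by a list of 5 Ensembl gene IDs with their names: ENSRNOG00000014096 (Nr3c1), ENSRNOG00000011815 (Sgk1), ENSRNOG00000022523 (Fkbp5), ENSRNOG00000000521 (Cdkn1a) and ENSRNOG00000000584 (Ddit4). Of these, 4 were found among the 23098 IDs of the count table, and all 4 had enough counts to be tested beside 15065 genes in all. Ddit4 is not analysed here. The count table holds no gene names, so each name rests on the list that defined the group.

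The glucocorticoid receptor is a transcription factor that binds the stress hormone corticosterone in rats. Without hormone it is held in the cytoplasm by Hsp90 and co-chaperones, and with hormone it enters the nucleus and binds DNA at glucocorticoid response elements. Fkbp5 encodes an Hsp90 co-chaperone that is induced by the receptor and lowers its affinity for hormone, which closes a short feedback loop. Sgk1 encodes a serum- and glucocorticoid-regulated kinase that acts on ion channels and transporters. Cdkn1a encodes p21, an inhibitor of cyclin-dependent kinases that is a classical target of p53 and is also induced by glucocorticoids in several cell types. Cardiac muscle cells express the receptor, and so do the other cell types of the heart.

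All animals were male Wistar rats, and every library came from flash-frozen free wall of the left ventricle at mid-ventricular level. The sham group had the dura opened at high thoracic level with the cord left intact, and its tissue was collected 7 days after surgery. The other 3 groups had a complete transection of the cord at high thoracic level (SCI) and were collected 1 day, 3 days or 12 weeks after it. Each group has 6 libraries, no strain beyond Wistar, drug or genetic change is given, the labels used here give no age, and no label states that each library came from a separate rat, so p-values measure the spread between these libraries, part of which may be technical. No sham group was collected at 1 day, 3 days or 12 weeks, so time after surgery and the injury cannot be told apart in any comparison with sham.

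The libraries held 15002476 to 70340174 counts each. Totals were 27097306 to 70340174 in sham, 41326217 to 62308617 at 1 day, 16756399 to 48966088 at 3 days and 15002476 to 44709028 at 12 weeks. The least abundant reading of any member was 1454 counts (Sgk1 in a 12 week library) and the most abundant 20232 counts (Cdkn1a in a sham library), so every value below rests on at least 1454 counts. Levels are given as CPM, the counts of a gene relative to the library total after scaling with TMM factors. They are not divided by gene length, so levels are compared between groups for a gene and not between genes. Each library also carries a number in its label, from 57 to 68 for sham and 3 days and from 77 to 88 for 1 day and 12 weeks. The labels do not say what these numbers mark. The comparisons of 3 days with sham and of 12 weeks with 1 day therefore each lie within 1 run of numbers, and the other comparisons do not. Those others include 1 day with sham and 12 weeks with sham. In them a difference between the runs cannot be told apart from one between the groups. The tissue label was not checked against marker genes, since the table has no gene names. In bulk tissue, fewer cells of a type and less RNA per cell cannot be told apart.

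At 12 weeks after transection Fkbp5 was higher and Nr3c1 lower than in sham, while no difference was called for Sgk1 and Cdkn1a. At 1 day and at 3 days the pattern was another: Cdkn1a was lower than in sham, and no difference was called for Nr3c1, Fkbp5 or Sgk1. A gene is called where the p-value of edgeR's quasi-likelihood F test, adjusted by the Benjamini-Hochberg method over all tested genes, is under 0.05. By this rule 1 of the 4 members was called at 1 day, where 24% of all tested genes were called. At 3 days 1 of 4 was called against 17.5% of all tested genes, and at 12 weeks 2 of 4 against 22.1%. With 4 members, 1 gene makes a large part of such a share, so no share is read as a result about the group. The results below are about single genes. How many of all tested genes had groups that did not overlap was not counted, so such statements only describe the libraries shown. The median size of the log2 fold change over the 4 members was 0.23 at 1 day, 0.19 at 3 days and 0.17 at 12 weeks, beside 0.19, 0.17 and 0.18 over all tested genes in the same order.

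**Figure D1:**
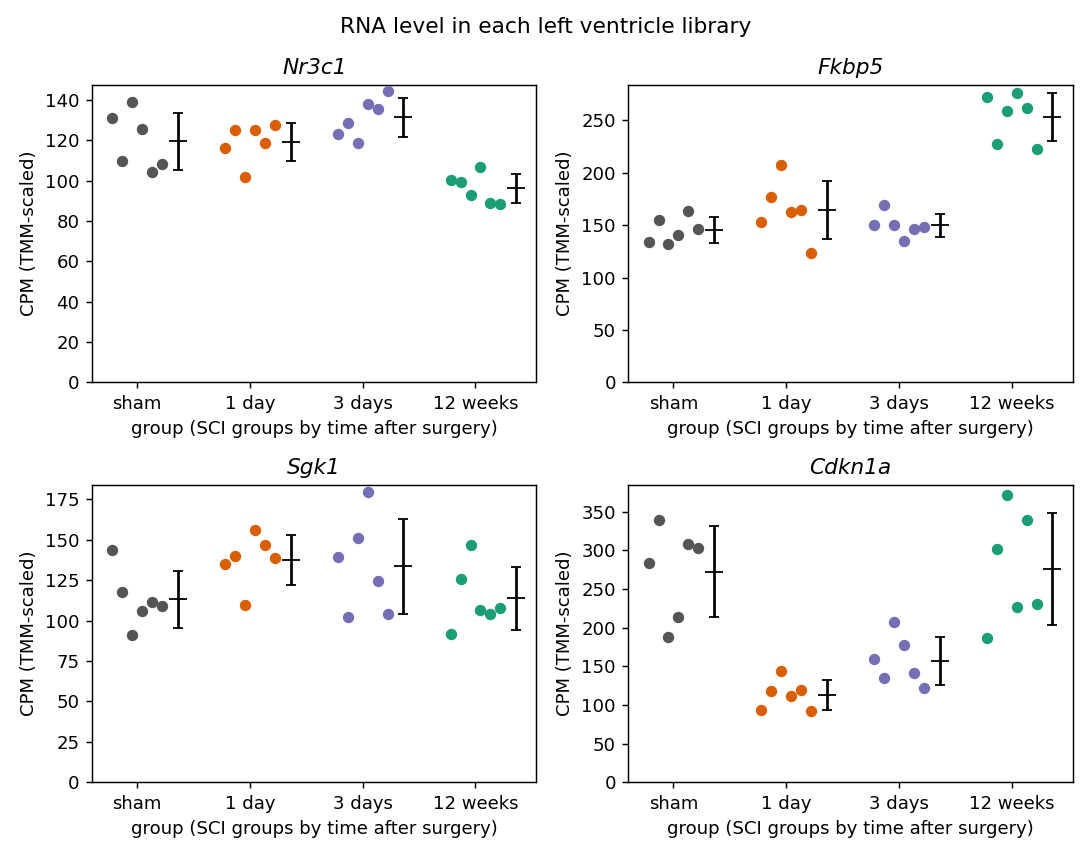
RNA level in CPM (y axis, from 0) of Nr3c1, Fkbp5, Sgk1 and Cdkn1a in each of the 24 libraries (points) by group (x axis), with the group mean and SD (black, n = 6). All 6 libraries at 12 weeks lie above every sham library for Fkbp5, and all 6 at 1 day lie below every sham library for Cdkn1a.

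The receptor gene Nr3c1 was lower at 12 weeks than in each of the other groups. Sham libraries ranged from 104 to 139 CPM with a median of 118 CPM. The 1 day libraries ranged from 102 to 128 CPM with a median of 122 CPM, and the 3 day libraries from 118 to 145 CPM with a median of 132 CPM. At 12 weeks the range was 88.5 to 107 CPM with a median of 96.1 CPM, and 5 of the 6 libraries lay below the lowest sham library, so the groups overlapped in 1 library at the low end of sham. The mean fell from 119.6 ± 14.1 CPM in sham to 96.1 ± 7.28 CPM at 12 weeks (SD, n = 6). The log2 fold change was -0.32 (SE 0.074, edgeR adjusted p = 0.00325), or 0.803 of the sham level with a 95% interval of 0.723 to 0.893. All 6 libraries at 12 weeks were below the sham mean. Of all tested genes, 30.1% had a log2 fold change of at least this size at 12 weeks.

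In order of mean level, Nr3c1 was lowest at 12 weeks, followed by 1 day (119.2 ± 9.56 CPM), sham and 3 days (131.3 ± 9.75 CPM; SD, n = 6). The upper neighbours in this order were not told apart. At 1 day it stood at a log2 fold change of -0.01 from sham (95% interval -0.16 to 0.15, edgeR adjusted p = 0.97), and at 3 days at 0.13 (-0.02 to 0.29, edgeR adjusted p = 0.223). Within the run of libraries 77 to 88, Nr3c1 was lower at 12 weeks than at 1 day. The log2 fold change was -0.31 (SE 0.0738, edgeR adjusted p = 0.00218), close to the value against sham, which uses the same 12 week libraries. Nr3c1 was also lower at 12 weeks than at 3 days, by -0.45 (SE 0.0739, edgeR adjusted p = 7.44e-05), and in that comparison the groups did not overlap.

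Fkbp5, the feedback co-chaperone of the receptor, rose at 12 weeks. Sham libraries held 132 to 163 CPM with a median of 144 CPM, and 12 week libraries 223 to 276 CPM with a median of 260 CPM. The groups did not overlap, and all 6 libraries at 12 weeks were above the highest sham library. The mean rose from 145.2 ± 12.3 to 253.2 ± 22.9 CPM (SD, n = 6). The log2 fold change was 0.80 (SE 0.0896, edgeR adjusted p = 1.86e-06), or 1.74-fold with a 95% interval of 1.53 to 1.98. Of all tested genes, 7.59% had a log2 fold change of at least this size at 12 weeks.

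At 1 and 3 days no difference from sham was called for Fkbp5. The 3 day libraries ranged from 135 to 169 CPM with a median of 149 CPM, and the log2 fold change was 0.05 (95% interval -0.14 to 0.23, edgeR adjusted p = 0.779). The 1 day libraries were more spread, from 123 to 207 CPM with a median of 164 CPM, and 5 of 6 lay above the sham mean. The log2 fold change at 1 day was 0.18 (SE 0.089, edgeR adjusted p = 0.145), which was not called. This value moved with single libraries in both directions. Leaving out 1 day replicate 6, the lowest of its group at 123 CPM, gave 0.25, which was called (edgeR adjusted p = 0.0258). Leaving out 1 day replicate 3, the highest at 207 CPM, gave 0.11, which was not (edgeR adjusted p = 0.377). Within 1 run of library numbers, Fkbp5 was higher at 12 weeks than at 1 day by 0.62 (SE 0.0893, edgeR adjusted p = 1.55e-05) with no overlap between the groups, and against 3 days the difference was 0.76 (SE 0.0896, edgeR adjusted p = 2.42e-06), again with no overlap. In order of mean level the groups were sham, 3 days, 1 day and 12 weeks, and only the last step in this order was called.

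Since Fkbp5 and Nr3c1 moved in opposite directions at 12 weeks, the number of Fkbp5 counts per Nr3c1 count is also given. This ratio is taken within a library and does not depend on how libraries are scaled. It was 0.949 to 1.57 in sham, 0.966 to 2.03 at 1 day, 0.980 to 1.31 at 3 days and 2.28 to 2.94 at 12 weeks. Every library at 12 weeks was above every library of the other groups. The Fkbp5 level alone showed the same, with at least 223 CPM at 12 weeks and at most 207 CPM elsewhere. The mean was 1.24 ± 0.243 in sham and 2.64 ± 0.231 at 12 weeks (SD, n = 6). The ratio was formed after the levels of both genes had been seen and is given without a test. How many other pairs of genes would separate the groups in this way was not counted. Its absolute value also depends on the lengths of both genes.

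**Figure D2:**
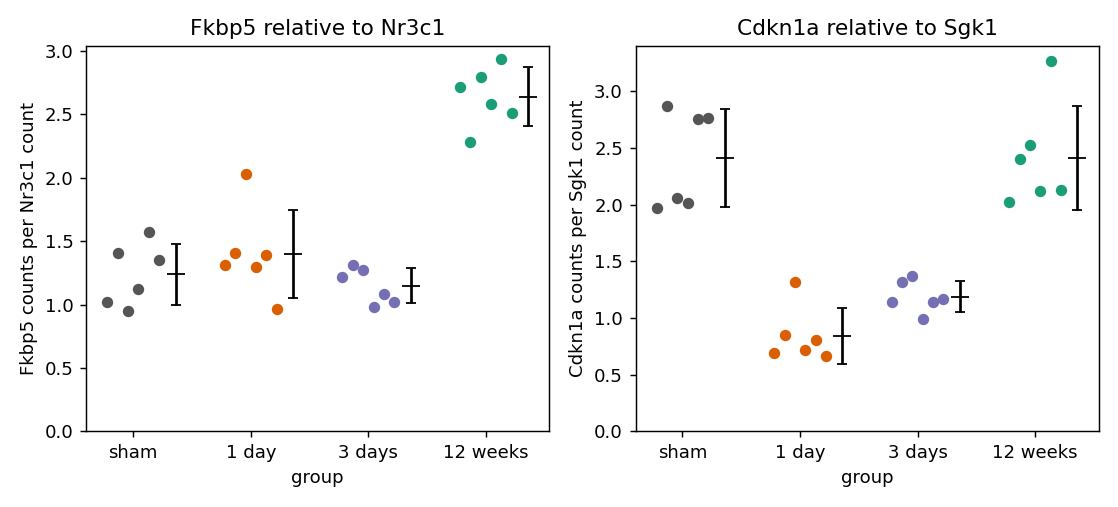
Counts of Fkbp5 per count of Nr3c1 (left) and of Cdkn1a per count of Sgk1 (right) in each library (points) by group, with mean and SD (black, n = 6), on axes that start at 0. The left ratio is 2.28 to 2.94 at 12 weeks and at most 2.03 elsewhere, and the right ratio is at most 1.37 at 1 and 3 days and at least 1.97 in sham and at 12 weeks.

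Sgk1, the kinase, was the member with no called difference in any of the 6 comparisons. Sham libraries ranged from 90.8 to 144 CPM with a median of 110 CPM, and 1 day libraries from 110 to 156 CPM with a median of 139 CPM. The 3 day libraries had the widest spread, from 102 to 180 CPM with a median of 132 CPM, and the 12 week libraries ranged from 91.8 to 147 CPM with a median of 107 CPM. All 4 groups overlapped. The log2 fold change at 1 day was 0.28 with a 95% interval of 0.01 to 0.55 (unadjusted p = 0.0394, edgeR adjusted p = 0.116), with 5 of 6 libraries above the sham mean.

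With 1 library left out, Sgk1 was called in 1 of 24 fits at 1 day against sham. The same held for 1 of 24 fits at 12 weeks against 1 day. In the other comparisons no such fit gave a call. Sham replicate 1, at 144 CPM, was the highest of its group. With that library left out the 1 day difference was 0.37 and was called (edgeR adjusted p = 0.0451), and with only the 1 day and sham libraries in the fit it was 0.29 and was also called (edgeR adjusted p = 0.0357). At 3 days the log2 fold change was 0.24 (95% interval -0.03 to 0.51, edgeR adjusted p = 0.221). It was 0.14 without 3 day replicate 4, the highest at 180 CPM (edgeR adjusted p = 0.501), and over all fits that left out 1 library it ranged from 0.14 to 0.32 with no call. At 12 weeks it was 0.01 (-0.26 to 0.28, edgeR adjusted p = 0.976). Between 12 weeks and 1 day it was -0.27 (95% interval -0.54 to -0.01, edgeR adjusted p = 0.106), and without 12 week replicate 3, at 147 CPM, it was -0.36 and was called (edgeR adjusted p = 0.034). The intervals allow a rise of up to 1.46-fold at 1 day and of up to 1.42-fold at 3 days, and at 12 weeks anything from 0.835 to 1.21 of the sham level.

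Cdkn1a, which encodes the cell cycle inhibitor p21, had the largest change from sham of the 4 members tested, a fall at 1 day. Sham libraries ranged from 187 to 339 CPM with a median of 293 CPM, and 1 day libraries from 92.5 to 144 CPM with a median of 115 CPM. The groups did not overlap. The mean was 272.2 ± 59.0 CPM in sham and 113.2 ± 19.4 CPM at 1 day (SD, n = 6). The log2 fold change was -1.27 (SE 0.169, edgeR adjusted p = 1.08e-05), which is 0.416 of the sham level with a 95% interval of 0.327 to 0.529. Of all tested genes, 2.11% had a log2 fold change of at least this size at 1 day.

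At 3 days Cdkn1a was still low. The libraries ranged from 122 to 207 CPM with a median of 151 CPM, and 5 of 6 lay below the lowest sham library while the sixth was within the sham range. The log2 fold change was -0.79 (SE 0.167, edgeR adjusted p = 0.00188), or 0.577 of sham with a 95% interval of 0.454 to 0.733, and this comparison lies within the run of libraries 57 to 68. The mean was higher at 3 days (157.0 ± 31.2 CPM) than at 1 day, with a log2 fold change of 0.47 and all 6 libraries above the 1 day mean. That step was not called (unadjusted p = 0.00914, edgeR adjusted p = 0.125), in a comparison where none of the 4 members was called and 2.74% of all tested genes were. That background share stands for 413 genes and is unstable: the count was 170 without 1 day replicate 5, 185 to 275 without 1 day replicate 1 or 4 or 3 day replicate 2, 4 or 6, 653 without 12 week replicate 3, 253 with library totals, 259 with only the groups compared and 811 with DESeq2.

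At 12 weeks the Cdkn1a libraries overlapped those of sham. They ranged from 186 to 371 CPM with a median of 266 CPM, and the log2 fold change against sham was 0.02 (95% interval -0.32 to 0.36, edgeR adjusted p = 0.951). The interval allows levels from 0.799 to 1.28 of sham. Against 1 day, within the run of libraries 77 to 88, the level at 12 weeks was 2.44-fold higher (95% interval 1.91 to 3.10, log2 fold change 1.28, SE 0.169, edgeR adjusted p = 5.73e-06), with no overlap. Against 3 days it was 1.76-fold higher (log2 fold change 0.81, SE 0.168, edgeR adjusted p = 0.000704), and 5 of 6 libraries were above the highest 3 day library. In order of mean level the groups were 1 day, 3 days, sham and 12 weeks. Only the step from 3 days to sham was called between neighbours.

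**Figure D3:**
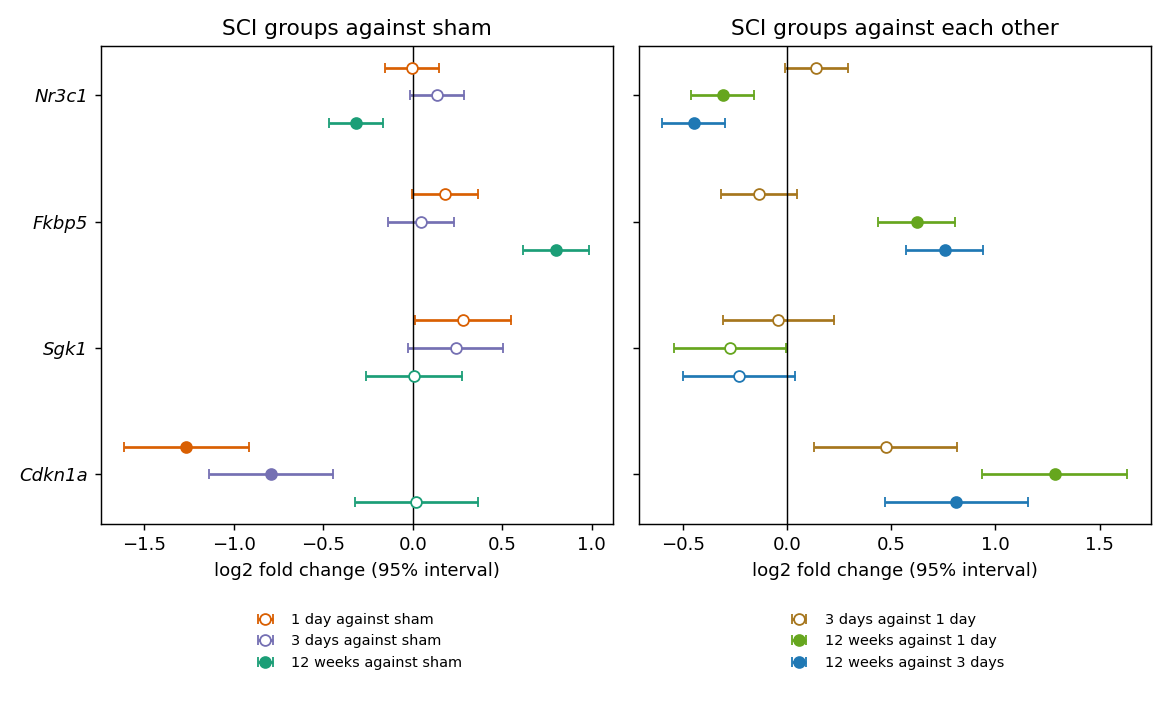
Log2 fold change with its 95% interval (x axis) of each member against sham (left) and between the SCI groups (right), from edgeR with 6 libraries a group. Filled points have an adjusted p under 0.05 and open points do not: Cdkn1a at 1 and 3 days (-1.27 and -0.79) and Fkbp5 and Nr3c1 at 12 weeks (0.80 and -0.32) are filled on the left, and Sgk1 is open throughout.

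Against sham, Fkbp5 was called only at 12 weeks and Cdkn1a only at 1 day and 3 days, and the cause of either change was not tested. Between the SCI groups, 3 of the 4 members (Nr3c1, Fkbp5 and Cdkn1a) were called between 12 weeks and 1 day, where 33.9% of all tested genes were called, and the same 3 between 12 weeks and 3 days, where 31.3% were called. These comparisons use the same 12 week libraries. The Cdkn1a counts per Sgk1 count, which again do not depend on scaling, were 1.97 to 2.88 in sham, 0.667 to 1.32 at 1 day, 0.988 to 1.37 at 3 days and 2.02 to 3.27 at 12 weeks. Both acute groups lay wholly below sham and 12 weeks in this ratio. The Cdkn1a level alone overlapped sham at 3 days. The Cdkn1a to Sgk1 ratio was also formed after the levels of both genes had been seen, and it is given without a test. For this ratio too, other pairs of genes were not counted.

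The promoter windows of the members whose levels changed most are printed to show which known motifs lie beside their annotated starts. They are RefSeq sequences of build GRCr8 matched by gene symbol, from 250 bases before to 50 bases after an annotated start, written 5′ to 3′ on the gene's strand. RefSeq gives 1 start for Fkbp5 and for Cdkn1a in this table, 2 for Nr3c1 and 3 for Sgk1. The Fkbp5 window is chr20:6543506-6543805 on the minus strand, with capitals for the GC box GGGCGG. The Cdkn1a window is chr20:7150682-7150981 on the plus strand, with capitals for the match to the p53 half-site consensus.
Fkbp5: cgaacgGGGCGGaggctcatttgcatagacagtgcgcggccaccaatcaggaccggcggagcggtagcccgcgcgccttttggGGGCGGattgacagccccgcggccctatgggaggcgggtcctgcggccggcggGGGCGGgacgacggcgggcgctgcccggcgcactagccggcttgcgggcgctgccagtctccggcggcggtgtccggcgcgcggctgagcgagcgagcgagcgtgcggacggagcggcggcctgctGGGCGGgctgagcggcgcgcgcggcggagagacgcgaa
Cdkn1a: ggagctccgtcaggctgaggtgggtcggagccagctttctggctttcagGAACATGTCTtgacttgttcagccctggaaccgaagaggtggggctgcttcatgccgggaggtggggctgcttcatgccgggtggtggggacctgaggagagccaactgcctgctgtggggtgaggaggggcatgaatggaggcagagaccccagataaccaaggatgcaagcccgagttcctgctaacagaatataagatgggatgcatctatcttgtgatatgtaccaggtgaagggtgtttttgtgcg

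None of the 7 windows of the 4 genes held the glucocorticoid response element searched as GNACANNNTGTNC, which 0.439% of all 33469 windows in the table held. None held the half-site AGAACA either, which 20.7% of all windows held. Both strands were searched, and a half-site can overlap the longer element. No match says only that these letters are absent from these windows. The Cdkn1a window held 1 match to the p53 half-site, the capitals GAACATGTCT that begin at base -201 relative to the annotated start, and 7.98% of all windows held at least 1 such match. The Fkbp5 window held 4 GC boxes and had a GC content of 77.0%, and 33.1% of all windows held at least 1 GC box. GC boxes were not particular to Fkbp5. Of the 2 Nr3c1 windows, 1 also held 4 (GC content 79%) and the other held 1. Of the 3 Sgk1 windows, 1 also held 4 (GC content 66%), and the others held 2 and 0. The Cdkn1a window held 0. The Fkbp5 window also held 1 CCAAT box, which no other window of the 4 genes held and 37.5% of all windows did. Of the 3 Sgk1 windows, 2 held TATAAA, as did 14.2% of all windows, and neither Nr3c1 window did. These matches describe letters, not binding.

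Members were also compared with each other between libraries of the same group. Levels were expressed as log2 CPM minus the group mean, so that differences between groups play no part, over 24 libraries. In all, 10 relations (6 between members and 4 between a member and the library total) were tested by permuting libraries within groups, and p-values were adjusted over these 10. Libraries with more Nr3c1 had less Cdkn1a, with Pearson r = -0.642 (permutation p = 0.00192, adjusted p = 0.0192) and Spearman rho = -0.676 (permutation p = 0.00109, adjusted p = 0.0109). The sign was the same within each group, with r = -0.813 in sham, -0.65 at 1 day, -0.668 at 3 days and -0.462 at 12 weeks. Within the run of libraries 57 to 68 it was -0.757, and within 77 to 88 it was -0.519. Of all tested genes, 0.392% had a correlation with Nr3c1 of at least this size.

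Libraries with more Sgk1 had more Cdkn1a, with Pearson r = 0.558 (permutation p = 0.00878, adjusted p = 0.0439) and Spearman rho = 0.523 (permutation p = 0.0146, adjusted p = 0.0732). The Spearman value did not pass after adjustment. The sign was not the same in each group, with r = 0.629 in sham, -0.498 at 1 day, 0.847 at 3 days and 0.771 at 12 weeks. In the 2 runs of library numbers it was 0.72 and 0.37. Of all tested genes, 1.73% had a correlation with Sgk1 of at least this size. Leaving out the 2 libraries farthest from the median of the first gene gave r = -0.59 for Nr3c1 with Cdkn1a (permutation p = 0.0162, adjusted p = 0.162) and r = 0.471 for Sgk1 with Cdkn1a (permutation p = 0.0432, adjusted p = 0.216). Neither passed after adjustment, although both kept their sign, so the calls do not hold without those libraries.

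**Figure D4:**
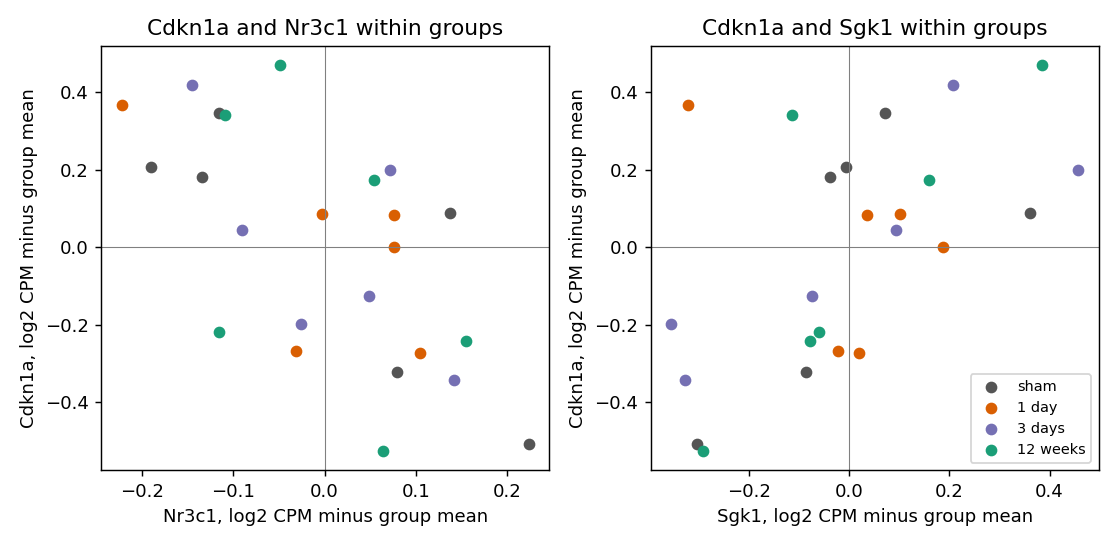
Cdkn1a (y axis) against Nr3c1 (left) and Sgk1 (right) in 24 libraries, each value a log2 CPM minus the mean of its group, coloured by group. The points fall from upper left to lower right on the left (r = -0.642) and rise from lower left to upper right on the right (r = 0.558).

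The other 4 relations between members did not pass, and none had the same sign of r in all 4 groups. Nr3c1 and Fkbp5 had r = -0.46 (permutation p = 0.0306, adjusted p = 0.102) and rho = -0.389 (permutation p = 0.0751, adjusted p = 0.25), and without the 2 farthest libraries r was -0.207. By group, r for Nr3c1 and Fkbp5 was -0.94 in sham, -0.725 at 1 day, -0.358 at 3 days and 0.453 at 12 weeks. Sgk1 and Fkbp5 had r = -0.35 (permutation p = 0.0712, adjusted p = 0.178) and rho = -0.302 (permutation p = 0.165, adjusted p = 0.33). Fkbp5 and Cdkn1a had r = 0.317 (permutation p = 0.124, adjusted p = 0.247) and rho = 0.329 (permutation p = 0.144, adjusted p = 0.33). By group, r for Fkbp5 and Cdkn1a was 0.708 in sham, 0.911 at 1 day, -0.36 at 3 days and -0.159 at 12 weeks. For Nr3c1 and Sgk1 the values were r = -0.01 (permutation p = 0.974, adjusted p = 0.99) and rho = -0.079 (permutation p = 0.721, adjusted p = 0.801). The library total had r between -0.176 and 0.185 with the 4 members and rho between -0.181 and 0.149, with permutation p-values of at least 0.347 (adjusted, at least 0.578). All members share the scaling of their library, and the part of this in the correlations was not tested.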

How the data were processed

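RNA of the left ventricle was measured in 24 libraries of 4 groups, grouped by the labels. Per the labels' protocols, total RNA was depleted of ribosomal RNA and made into strand-specific libraries. The authors deposited raw counts per gene in 1 table. Per the submitters' processing notes, the tools were featureCounts 2.0.6, STAR 2.7.11a and FastQC 0.12.1, and the build was mRatBN7.2. The sources used here do not give the annotation release, the strand setting or the treatment of multiply mapped reads. In RefSeq's GRCr8 gene table no other protein-coding gene overlapped the span of a member. The table has 26166 lines for 23098 IDs, 781 of them on several identical lines, and each ID was used once. Even numbers made up 58.1 to 61.1% of counts from 1 to 200 in each library, so a count may not be 1 independent fragment.

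The tests used edgeR 4.0.16 in R 4.3.3. The filter filterByExpr by group left 15065 genes, libraries were scaled with TMM factors, and 1 quasi-likelihood fit with a term per group (20 residual degrees of freedom) gave 6 two-sided contrasts. Standard errors and 95% intervals come from each fold change and F value. Log2 CPM for correlations used a prior count of 0.5 and 100000 permutations. Replicate pairs had a chi-square per degree of freedom of at least 12.9, so no library repeats another of its group within sampling noise. Only the edgeR fit and its contrasts were also tried on simulated counts. Alternatives were DESeq2 1.42.0, limma-voom (limma 3.58.1), other scalings, no filter, 2 groups only, a replicate block and leaving out each library. The members and lists were chosen with earlier results of these data known. Fixed lists of other receptor, glucocorticoid, p53 and stress genes, of cell type markers, and of genes with a like pattern need gene names. The reference gave no Ensembl IDs beside its gene names, so these lists were not used here.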

Additional observations from a re-analysis of the deposited data

Results flagged for a closer look

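Levels differed between the SCI groups by direct test for 3 members. With edgeR, the log2 difference between 12 weeks and 1 day was -0.31 for Nr3c1, 0.62 for Fkbp5 and 1.28 for Cdkn1a. Between 12 weeks and 3 days it was -0.45 for Nr3c1, 0.76 for Fkbp5 and 0.81 for Cdkn1a. All 6 sham libraries are shared, so the difference of 2 effects against sham equals this direct contrast, and with no sham at each time it compares groups, not effects of the injury. In the 16 sets of 6 libraries (4 members in 4 groups), no library stood apart from the others by Dixon's test, where about 1 in 20 sets would by chance.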

How the results depend on the processing

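Over 7 alternatives (DESeq2, RLE factors, library totals, limma-voom, no filter, only the groups compared, replicate block), 161 of 168 member values kept their direction and their side of the threshold. The calls of Cdkn1a at 1 and 3 days, of Fkbp5 and Nr3c1 at 12 weeks and of these 3 between 12 weeks and both acute times held in each and without any single library. The median log2 fold change of all genes moved by at most 0.0244. Values near 0 changed sign: Nr3c1 at 1 day was 1.86e-05 with RLE factors, 0.0077 with library totals, 0.0017 with no filter and 0.00048 with only the groups compared, Sgk1 at 12 weeks was -0.00091 with no filter, and Cdkn1a at 12 weeks was -0.021 with the replicate block. Sgk1 at 1 day was called at 0.29 with only the groups compared. The genes called between 3 days and 1 day, 413 in all, were 253 with library totals, 259 with only the groups compared and 811 with DESeq2; the cause was not tested. That count was 170 to 653 without single libraries.

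Without single libraries, called log2 fold changes against sham were -1.35 to -1.19 for Cdkn1a at 1 day, -0.88 to -0.72 at 3 days, 0.78 to 0.84 for Fkbp5 and -0.35 to -0.27 for Nr3c1 at 12 weeks. The ranges that held a change of call or sign were -0.036 to 0.042 for Nr3c1, 0.23 to 0.37 for Sgk1 and 0.11 to 0.25 for Fkbp5 at 1 day, -0.080 to 0.089 for Sgk1 and -0.085 to 0.11 for Cdkn1a at 12 weeks, -0.15 to 0.023 for Sgk1 between 3 days and 1 day, and -0.36 to -0.23 for Sgk1 between 12 weeks and 1 day. The correlation of Nr3c1 with Sgk1 was 0.29 in libraries 77 to 88, and without the 2 farthest libraries those of Cdkn1a fell to -0.59 with Nr3c1 and 0.471 with Sgk1.

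Replicate numbers are shared between groups, but same-numbered libraries did not deviate together (correlations of -0.166 to 0.14). Such correlations cannot show whether the design paired these libraries. With the replicate block Cdkn1a was -1.29 at 1 day and -0.81 at 3 days, Fkbp5 0.80 and Nr3c1 -0.32 at 12 weeks, and it changed no call of a member.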
